A study of Mus musculus with 12 samples.

Results

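The muscle regeneration genes described here are 10 genes linked to the repair of skeletal muscle, some of which are also on outside repair. These are the transcription factors Pax7, Myf5, Myod1, Myog and Myf6, the developmental sarcomere genes Myh3, Myh8 and Actc1, and the surface proteins Chrna1 and Ncam1. They are a list of gene names, found by symbol and with no threshold on a measured value, each as 1 of the 55487 genes in the deposited tables. RNA was sequenced from full-thickness skin wounds of male C57BL/6JNarl mice aged 6 weeks. In the sham group the wounds received Pluronic F127 (P-F127) gel alone once daily, and the CAP-treated wounds received 10 µM capsaicin (CAP), the pungent compound of chili peppers, in the same gel. Wounds were taken at day 3 or day 6, with 3 libraries in each of the 4 groups and 12 libraries in all. Each mouse carried a pair of wounds, and the labels do not say whether any libraries share a mouse, so the tests measure the spread between libraries.

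Adult skeletal muscle repairs itself from satellite cells, resting stem cells that carry the transcription factor Pax7. After injury these cells divide, switch on the myogenic regulatory factors (Myf5 and Myod1 for commitment, then Myog and Myf6 for differentiation) and fuse into new fibres, which for a time use embryonic and perinatal versions of the contractile proteins. Mouse skin lies on a thin sheet of striated muscle, the panniculus carnosus, so a full-thickness punch through the skin also cuts muscle.

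All 10 genes are protein-coding and lie at the same coordinates in the deposited tables and in the GENCODE M21 annotation of mouse build GRCm38 (mm10). Myf5 and Myf6 are neighbours on chromosome 10 (chr10:107482908-107486134 and chr10:107492853-107494737, both on the minus strand). Myh3 (chr11:67078300-67102291) and Myh8 (chr11:67277124-67308634) both lie on the plus strand of chromosome 11. Myod1 is at chr7:46376474-46379099 and Myog at chr1:134289989-134292548, both on the plus strand. Pax7 (chr4:139737062-139833528), Chrna1 (chr2:73563215-73580338), Ncam1 (chr9:49502136-49798925) and Actc1 (chr2:114047282-114053548) are on the minus strand. Of the 31-base stretches of the annotated transcripts, 18.6% for Myh8 and 11.1% for Myh3 also occur in other genes, mostly other myosin heavy chain genes such as Myh2, Myh1 and Myh4, so part of their level may have been split with those genes. The share was 4.30% for Ncam1, mostly with the antisense gene Gm11149 that overlaps it, 4.09% for Chrna1, 0.756% for Actc1 and 0 for the other 5 genes. Actc1 is also overlapped on the other strand by A530058N18Rik.

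Proteins of the MyoD family bind the E-box, the 6-base motif CANNTG (N is any base), in the promoters of muscle genes. RefSeq promoter windows of build GRCm38.p6, from 250 bases before to 50 after the start site, were at hand for 7 of the 10 genes (Myog, Myf5, Pax7, Myh3, Myh8, Chrna1 and Actc1). Both strands were searched. An E-box was found in 5 of the 7 windows, and in 72.3% of 32817 promoter windows of the same length. The bases before the first annotated exon follow for 3 genes that stand for the steps of the programme: the differentiation factor Myog (chr1:134289754-134289988, plus strand), the receptor subunit Chrna1 (chr2:73580339-73580588, minus strand) and the embryonic myosin Myh3 (chr11:67078050-67078299, plus strand). They are written 5′ to 3′ with each E-box in capitals.
Myog: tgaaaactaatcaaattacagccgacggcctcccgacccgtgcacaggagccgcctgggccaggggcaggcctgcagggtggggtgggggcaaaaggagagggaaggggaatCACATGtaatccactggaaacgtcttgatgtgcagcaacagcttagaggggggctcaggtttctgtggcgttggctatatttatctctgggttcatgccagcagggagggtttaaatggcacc
Chrna1: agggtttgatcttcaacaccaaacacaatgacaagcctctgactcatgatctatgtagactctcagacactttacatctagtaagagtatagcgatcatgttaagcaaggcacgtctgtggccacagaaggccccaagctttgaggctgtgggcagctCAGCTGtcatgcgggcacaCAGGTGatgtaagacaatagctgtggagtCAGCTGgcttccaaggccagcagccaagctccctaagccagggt
Myh3: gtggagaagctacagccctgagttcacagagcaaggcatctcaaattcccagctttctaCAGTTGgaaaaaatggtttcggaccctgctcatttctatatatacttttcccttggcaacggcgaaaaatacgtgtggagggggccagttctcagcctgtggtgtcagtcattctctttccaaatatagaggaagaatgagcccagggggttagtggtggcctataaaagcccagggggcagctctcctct
The Chrna1 window held 3 E-boxes, as did 17.6% of all windows counting those with 3 or more. They were a CAGCTG at position -92, a CAGGTG at -73 and a second CAGCTG at -44, counted from the start site. Chrna1 was the only 1 of the 7 with either form. CAGCTG occurred in 16.3% of all windows, and CAGGTG or its reverse complement CACCTG in 20.2%. A match of letters is a description and does not show that a protein was bound.

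Values are in TPM, the share of all transcripts that a gene makes up, which correct for transcript length and set each library to the same total, so TPM keep no record of sequencing depth. The 12 libraries each had between 18533 and 19325 genes at 0.3 TPM or more, and mitochondrial genes took 5.21 to 6.56% of the TPM. Striated muscle was present in all 12: Acta1, the actin of adult skeletal muscle fibres, ranged from 981 to 3041 TPM, and Ckm, the muscle creatine kinase, from 113 to 344 TPM. The first CAP library of day 3 stood apart from the other 2 of its group. Its median level over the 10 genes was 100% of the sham day 3 mean, against 39.2% and 20.4% in the second and the third. The main counts of the 10 genes in the tests below are also given without it. Group means, orders and overlaps are for all libraries unless stated. At day 3 the treatments overlapped for Pax7, Myod1, Myog, Myh8 and Chrna1 through that library alone.

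With all libraries kept, the 10 genes were highest at day 3 in the sham group in 8 of 10 cases by their mean, and the CAP-treated wounds of day 6 had the lowest mean in all 10. Their summed level was 158 ± 7.33 TPM (mean ± SD, n = 3) in the sham group at day 3 and 70.6 ± 59.1 TPM in CAP-treated wounds of that day, where the libraries without the first held 27.8 and 46.0 TPM. By day 6 it was 56.7 ± 25.0 TPM in the sham group and 20 ± 7.67 TPM in CAP-treated wounds. In bulk tissue, fewer cells of a type and less RNA per cell cannot be told apart. Below, the 3 values of a group are given in the order of replicates 1 to 3.

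**Figure D1:**
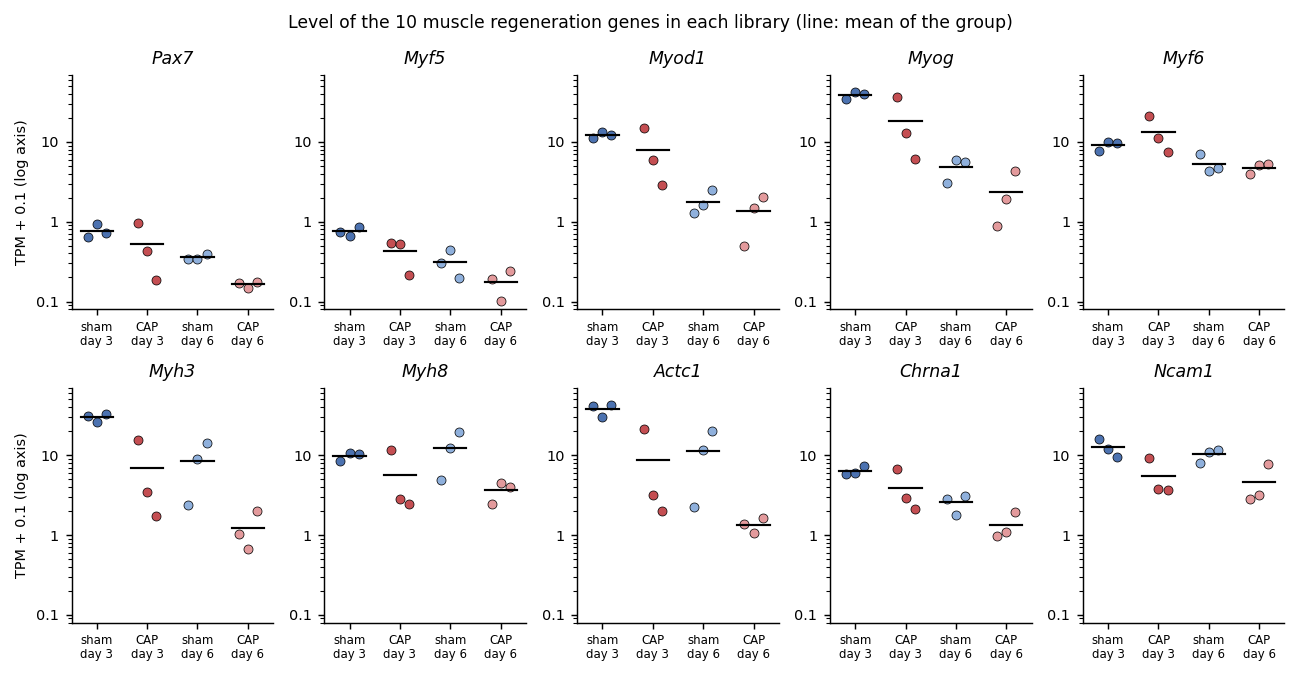
Level of each of the 10 genes in the 12 libraries, as TPM + 0.1 on a log axis, by group, with points for libraries (replicates 1 to 3 from left to right) and a line for the group mean. The sham libraries of day 3 sit close together, the first CAP library of day 3 sits above the other 2 in all 10 panels, and the CAP group of day 6 has the lowest mean in every panel.

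Pax7, the satellite cell factor, was scarce everywhere. It measured 0.542, 0.826 and 0.624 TPM in the sham group at day 3 and 0.861, 0.336 and 0.0850 TPM in CAP-treated wounds. At day 6 it measured 0.242, 0.240 and 0.299 TPM in the sham group and 0.0700, 0.0476 and 0.0736 TPM in CAP-treated wounds. All 3 CAP libraries of day 6 were thus below all 3 sham libraries of that day, while the groups overlapped at day 3. Myf5, which with Myod1 commits satellite cells to the muscle lineage, was as scarce. It measured 0.647, 0.569 and 0.755 TPM in the sham group at day 3, against 0.434, 0.430 and 0.115 TPM in CAP-treated wounds. By day 6 the levels were 0.200, 0.339 and 0.0997 TPM in the sham group, and 0.0926 and 0.142 TPM in CAP replicates 1 and 3. It is listed at 0 in CAP replicate 2, the only library with a value of 0 among these genes. The CAP libraries of day 3 did not overlap the sham libraries for Myf5, and those of day 6 did.

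Myod1, the master regulator of myoblast commitment, was held within a narrow band in the sham group at day 3, at 11.1, 13.3 and 12.2 TPM. The CAP libraries of day 3 spread from above that band to far below it, at 15, 5.76 and 2.83 TPM. At day 6 it measured 1.17, 1.5 and 2.39 TPM in the sham group and 0.393, 1.38 and 1.97 TPM in CAP-treated wounds. All 6 libraries of day 6 were therefore below all 6 of day 3. Myog, which myoblasts switch on when they stop dividing and differentiate, was 1 of the most abundant of the 10 genes, with 34.5, 41.7 and 39.9 TPM in the sham group at day 3 and 36.4, 12.8 and 6.10 TPM in CAP-treated wounds. At day 6 the sham libraries held 2.96, 5.79 and 5.46 TPM and the CAP libraries 0.781, 1.82 and 4.22 TPM. The days did not overlap for Myog either, and the treatments overlapped on both days. Myf6, the factor that also stays on in mature fibres, behaved otherwise. It measured 7.65, 9.99 and 9.73 TPM in the sham group at day 3 and 21.3, 11.1 and 7.28 TPM in CAP-treated wounds, where its mean was the highest of the 4 groups. On day 6 its levels were 6.91, 4.24 and 4.57 TPM in the sham group and 3.88, 4.97 and 5.16 TPM in CAP-treated wounds. The highest and the lowest Myf6 library differed 5.48-fold, against 53.5-fold for Myog. Narrow spans were also found for Ncam1 (5.90-fold), Chrna1 (8.20-fold) and Myh8 (8.43-fold).

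Myh3, the embryonic myosin heavy chain and the usual marker of newly formed fibres, showed the clearest separation by treatment together with Actc1. It measured 30.9, 26.0 and 32.6 TPM in the sham group at day 3, and 15.5, 3.33 and 1.61 TPM in CAP-treated wounds. At day 6 it measured 2.29, 8.87 and 14.3 TPM in the sham group and 0.917, 0.564 and 1.91 TPM in CAP-treated wounds. On each day every CAP library lay below every sham library. Actc1, the cardiac alpha-actin that developing and regenerating skeletal muscle also uses, followed the same order, with 41.5, 29.7 and 42.5 TPM in the sham group at day 3 and 21.1, 3.12 and 1.93 TPM in CAP-treated wounds. The levels of day 6 were 2.15, 11.5 and 20.2 TPM in the sham group, and 1.26, 0.953 and 1.54 TPM in CAP-treated wounds. The first sham library of day 6 was the lowest of its group for both genes, and the first CAP library of day 3 the highest of its group. Myh8, the perinatal myosin heavy chain that follows the embryonic one, had wide and overlapping levels in the sham group, at 8.39, 10.6 and 10.3 TPM at day 3 and 4.78, 12.2 and 19.6 TPM at day 6. In CAP-treated wounds it measured 11.5, 2.73 and 2.33 TPM at day 3 and 2.38, 4.38 and 3.88 TPM at day 6. The treatments overlapped for Myh8 at day 3 but not at day 6, and it was the only 1 of the 10 genes with its highest mean at day 6.

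Chrna1, the alpha subunit of the muscle acetylcholine receptor, measured 5.65, 5.94 and 7.20 TPM in the sham group at day 3 and 6.66, 2.85 and 2.01 TPM in CAP-treated wounds. At day 6 it measured 2.69, 1.69 and 3.03 TPM in the sham group and 0.878, 1.0 and 1.85 TPM in CAP-treated wounds. The treatments overlapped on both days. Ncam1, the neural cell adhesion molecule, is carried by satellite cells and regenerating fibres but also by nerve and Schwann cells. It measured 16.0, 11.9 and 9.41 TPM in the sham group at day 3, and 9.20, 3.66 and 3.54 TPM in CAP-treated wounds. Its day 6 levels were 8.0, 11.0 and 11.4 TPM in the sham group and 2.71, 3.11 and 7.65 TPM in CAP-treated wounds. The CAP libraries lay below the sham libraries on both days, by a small gap in each case.

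Ordered by group mean, 5 genes (Pax7, Myf5, Myod1, Myog and Chrna1) ran from sham day 3 through CAP day 3 and sham day 6 to CAP day 6. In 3 genes (Myh3, Actc1 and Ncam1) the sham group of day 6 came before the CAP group of day 3. Without the first CAP library of day 3, the CAP mean of that day was below that of sham day 6 for Pax7 and Chrna1. It was below that of CAP day 6 for Myh8 and Ncam1. Neighbouring groups in the orders of all libraries often overlapped: the first and the second in 7 of the 10 genes, the second and the third in 7, and the third and the fourth in 8. The first and the fourth did not overlap in any of the 10. The groups of each gene were ranked by these same values, which favours a gap between the first and the fourth. The share of all genes with such gaps was not counted, so these counts are a description. For Myod1, Myog and Myf6 the gap without overlap fell between the days, and for Myf5, Myh3 and Actc1 a gap fell between the sham group of day 3 and the other 3 groups. Actc1 had a further gap between the CAP groups of day 3 and day 6. For Pax7 the only gap between neighbours lay between the sham and the CAP group of day 6.

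At day 3, 4 of the 10 genes were lower in CAP-treated wounds past the study's threshold, an unadjusted p below 0.05 with a change of at least 2-fold, and none was higher. Of all 18330 genes tested on that day, 1.16% were lower past that threshold, 0.426% higher and 1.58% changed in either direction. On the scale of log2(TPM + 0.1), Actc1 fell by 2.86 (SE 0.81, 7.25-fold, unadjusted p = 0.0099) and Myh3 fell by 2.72 (SE 0.73, 6.60-fold, unadjusted p = 0.00774). Myog fell by 1.44 (SE 0.58, unadjusted p = 0.0424) and Ncam1 fell by 1.29 (SE 0.39, unadjusted p = 0.0141). Adjusted by Benjamini-Hochberg over all genes in limma, these were 0.562 to 0.737, so no gene of the 10 passed a false discovery rate of 0.05, which 0.0164% of all genes did. A 2-sided exact permutation test of 3 against 3 libraries can give no p below 0.1, which Actc1, Myh3, Ncam1 and Myf5 reached, and Myog gave 0.2. Pax7, Myf5, Myod1, Chrna1 and Myh8 had differences between -0.82 and -1.19 that did not pass, and Myf6 had a difference of 0.40 (95% confidence interval -0.47 to 1.27). The median over the 10 genes was -1.07, against -0.05 over all genes tested. The CAP libraries lay entirely below the sham libraries in 4 of the 10 genes and in 8.75% of all genes.

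The count at day 3 rested on which libraries were kept. Without the first CAP library 7 of the 8 genes still tested were lower (1.97% of all genes tested then), with Pax7 and Myf5 under the 0.3 TPM filter. Actc1 then fell by 3.88, Myh3 by 3.62 and Myh8 by 1.91, with adjusted p in limma of 0.0253, 0.0314 and 0.0371. Myf6 was at -0.014. Without the first sham library the count was 2, Myh3 and Actc1, with Ncam1 at -1.09 (unadjusted p = 0.0502 in limma). The call of Myog was lost without any 1 of the libraries other than that first CAP library, at -0.84 to -1.52 with unadjusted p of 0.0740 to 0.0999.

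At day 6, 4 of the 8 genes tested were lower in CAP-treated wounds, with 2.34% of all 18323 genes lower and 3.8% changed in either direction. Over all genes this was 429 lower and 268 higher, and 285 lower and 403 higher after median-ratio scaling of the libraries, which moved the median of all genes from -0.12 to -0.0038 and left the 4 calls in place beside 1.56% of all genes lower. Myh3 fell by 2.61 on the log2 scale (SE 0.71, 6.10-fold, unadjusted p = 0.00773), and Actc1 fell by 2.61 (SE 0.75, 6.09-fold, unadjusted p = 0.0105). Myh8 fell by 1.58 (SE 0.51, unadjusted p = 0.0169) and Ncam1 fell by 1.3 (SE 0.39, unadjusted p = 0.0128). Their adjusted p in limma were 0.209 to 0.218, and no gene of all those tested reached an adjusted p below 0.05, though 3517 (19.2%) had an unadjusted p below it. The exact permutation p was 0.1, its smallest value, for Myh3, Actc1, Myh8 and Ncam1. Myh8 lost its call, at -1.47 or -1.13, when the second or the third sham library was left out, and at -1.33 when the first CAP library was. Without CAP replicate 3 Myog and Chrna1 were called too, at -1.84 and -1.27, while the share of all genes called lower went from 2.34 to 5.65%, and without sham replicate 2 Chrna1 was, at -1.21. Chrna1 had a difference of -0.97 (unadjusted p = 0.0320), which is under 2-fold. Myog had -1.26 (unadjusted p = 0.0652), Myod1 -0.58 and Myf6 -0.14, with confidence intervals that held 0. Pax7 and Myf5 averaged below 0.3 TPM in both groups of day 6 and were not tested. With no filter, Pax7 was lower by 1.14 on the log2 scale (unadjusted p = 0.00257, adjusted p = 0.315 in limma). The median over the 8 genes was -1.28, against -0.12 over all genes, and 4 of them did not overlap, as did 18% of all genes in that direction.

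**Figure D2:**
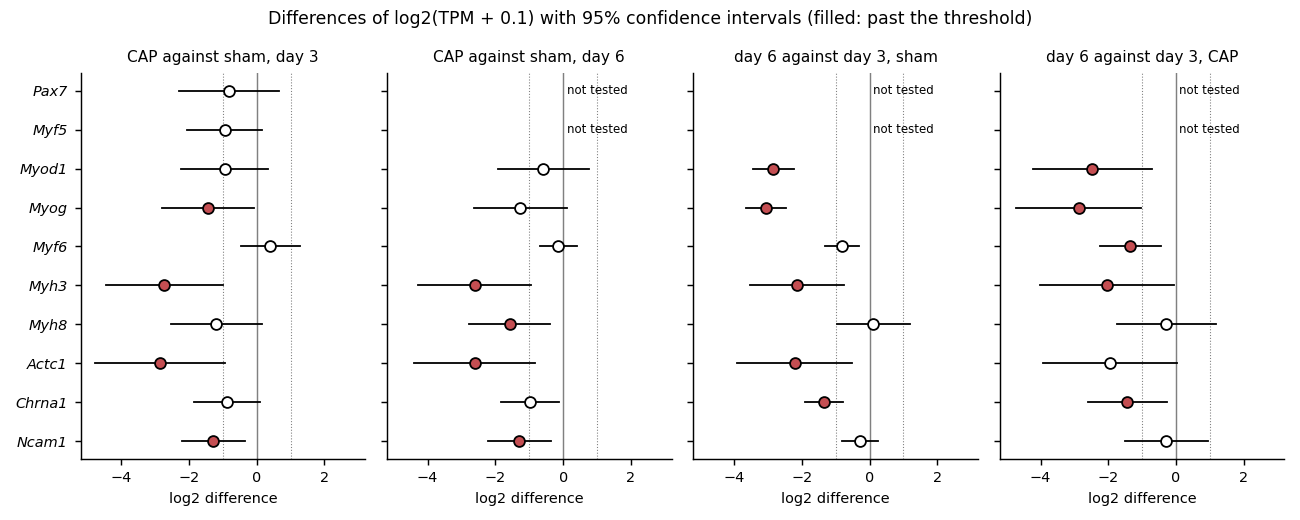
Difference of log2(TPM + 0.1) for each of the 10 genes in 4 comparisons, with 95% confidence intervals from limma as lines, filled points past the threshold, and dotted lines at a 2-fold change. Myh3 and Actc1 lie furthest below 0 in both comparisons of CAP with sham, and Myog and Myod1 in both comparisons of day 6 with day 3.

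Averaged over both days, 5 of the 8 genes tested were lower in CAP-treated wounds, a direction in which 0.959% of 18559 genes passed. Over all genes 178 were lower and 38 higher, and 130 lower and 51 higher after median-ratio scaling. Actc1 fell by 2.73 on the log2 scale (SE 0.62, adjusted p = 0.128 in limma) and Myh3 fell by 2.67 (SE 0.57, adjusted p = 0.126). Ncam1 fell by 1.29 (adjusted p = 0.142), Myh8 by 1.39 (adjusted p = 0.165) and Myog by 1.35 (adjusted p = 0.184). The exact permutation test within days gave its smallest p, 0.005, for Actc1, Myh3 and Ncam1, and 0.035 for Myh8 and 0.03 for Myog. Chrna1 had -0.91 (exact permutation p = 0.035), under 2-fold, though -1.04 without sham replicate 2 of day 6 and -1.07 without CAP replicate 3 of day 6, Myod1 -0.76 and Myf6 0.13. Without the first CAP library of day 3, 7 of the 8 were lower, against 1.19% of all genes, with Myod1 at -1.07 and Chrna1 at -1.15 added, and Myf6 was at -0.077. This comparison shares its libraries with the 2 single-day comparisons and is no further evidence for them.

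Whether the effect of CAP differed between days was tested as the difference of the 2 effects. None of the 10 genes passed, against 4.6% of 19046 genes in either direction. The differences ran from -0.54 for Myf6 (95% confidence interval -1.57 to 0.50) to 0.36 for Myod1 (95% confidence interval -1.52 to 2.24). For Myh3 the interval ran from -2.38 to 2.61 and for Actc1 from -2.47 to 2.97, so differences of several fold between the days were not detectable with 3 libraries per group.

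From day 3 to day 6 the sham group lost most of its Myog and Myod1. Of the 8 genes tested, 5 were lower at day 6, with 1.61% of 18368 genes lower in the same comparison. Myog fell by 3.06 on the log2 scale (SE 0.25, 8.33-fold, adjusted p = 0.00985 in limma) and Myod1 fell by 2.84 (SE 0.25, 7.15-fold, adjusted p = 0.0108). Chrna1 fell by 1.34 (SE 0.24, adjusted p = 0.0417). These 3 genes passed an adjusted p of 0.05, as did 1.14% of all genes in that direction. Actc1 fell by 2.21 (SE 0.73, unadjusted p = 0.0179, adjusted p = 0.197) and Myh3 by 2.14 (SE 0.59, unadjusted p = 0.00786, adjusted p = 0.130). Myf6 had -0.81 (unadjusted p = 0.00651), which is under 2-fold, and was called without sham replicate 1 of day 6, at -1.03. Ncam1 had -0.28 (95% confidence interval -0.80 to 0.25) and Myh8 had 0.11 (95% confidence interval -0.97 to 1.19). With no filter, Myf5 was lower by 1.34 and Pax7 by 1.07 on the log2 scale (adjusted p = 0.247 and 0.240). The exact permutation p was 0.1, the smallest possible, for the 5 called genes, and the libraries of day 6 lay entirely below those of day 3 in 6 of the 8 genes and in 10.6% of all genes.

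In CAP-treated wounds 5 of the 8 genes tested were lower at day 6 than at day 3, with 1.52% of 18202 genes lower. Myog fell by 2.88 on the log2 scale (SE 0.78), Myod1 by 2.48 (SE 0.74), Myh3 by 2.03 (SE 0.83), Chrna1 by 1.44 (SE 0.49) and Myf6 by 1.35 (SE 0.38), at unadjusted p of 0.00831, 0.0128, 0.0461, 0.0223 and 0.00962. Their adjusted p in limma were 0.316 to 0.425. Actc1 had -1.96 (unadjusted p = 0.0517), Ncam1 -0.29 and Myh8 -0.28. The standard errors for Myog and Myod1 were about 3 times those in the sham group. Without the first CAP library of day 3 the count was 2, Myog at -2.20 and Myod1 at -1.85, against 1.47% of all genes. It was 3 without CAP replicate 1 of day 6, with Myh3 at -1.97 and Chrna1 at -1.25, or without CAP replicate 2 of day 6, with Myh3 at -1.66 and Chrna1 at -1.33. Without CAP replicate 2 of day 3 Myh3 was at -2.23 and not called, and without CAP replicate 3 of day 3 Actc1 was called, at -2.64.

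Averaged over both treatments, 6 of the 8 genes were lower at day 6, against 1.29% of 18490 genes. Myog fell by 2.97 on the log2 scale (adjusted p = 0.0201 in limma), Myod1 by 2.66 (adjusted p = 0.0235), Chrna1 by 1.39 (adjusted p = 0.0478) and Myf6 by 1.08 (adjusted p = 0.0537). An adjusted p below 0.05 was reached in this direction by 0.768% of all genes. Actc1 fell by 2.09 (adjusted p = 0.116) and Myh3 by 2.09 (adjusted p = 0.0944). The exact permutation test within treatments gave its smallest p, 0.005, for Myog, Myod1, Chrna1, Myf6 and Actc1, and 0.01 for Myh3. Without the first CAP library of day 3 Myf6 was at -0.88, under 2-fold. Ncam1 and Myh8 had differences of -0.28 and -0.09. Set side by side, Myh3, Actc1 and Myog passed in the contrasts of treatment and of time, Ncam1 and Myh8 in that of treatment, and Myod1, Chrna1 and Myf6 in that of time. Whether a gene's 2 contrasts differed from each other was not tested.

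Genes of mature muscle had lower means in the same groups. The summed level of 24 genes of mature fibres (Acta1, Ckm, the adult myosins and others) was 7765 ± 1486 TPM (SD, n = 3) in the sham group at day 3 and 5840 ± 2874 TPM in CAP-treated wounds. At day 6 it was 4766 ± 1003 TPM in the sham group and 3734 ± 646 TPM in CAP-treated wounds. At day 3 none of the 23 tested was called between treatments, against 1.58% of all genes in either direction. Of the 23, 22 were below 0, with a median of -0.54 on the log2 scale. Leaving out the first CAP library, 8 of the 23 were lower, against 1.97% of all genes, and the median was -0.90. At day 6 the single gene called was Myh4, a fast adult myosin, which fell by 1.18, against 2.34% of all genes lower, and the median was -0.42. From day 3 to day 6, Myh2 and Myh4 were called lower in both treatments, with medians of -0.73 in the sham group and -0.49 in CAP-treated wounds. Of all genes, 1.61% and 1.52% were called lower. Without the first CAP library of day 3, Myh2 alone was called in CAP-treated wounds, against 1.47% of all genes, with a median of -0.13. Within the first CAP library of day 3 the mature genes had a median of 112% of the sham day 3 mean, against 61.1% and 44.5% in the other 2. The regeneration genes at day 6 had medians of 33.5%, 33.3% and 48.1% of the sham day 3 mean in the sham group and 12.3%, 9.25% and 18.9% in CAP-treated wounds, while the mature genes were at 54.7 to 77.6% and 38.9 to 57.6%.

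**Figure D3:**
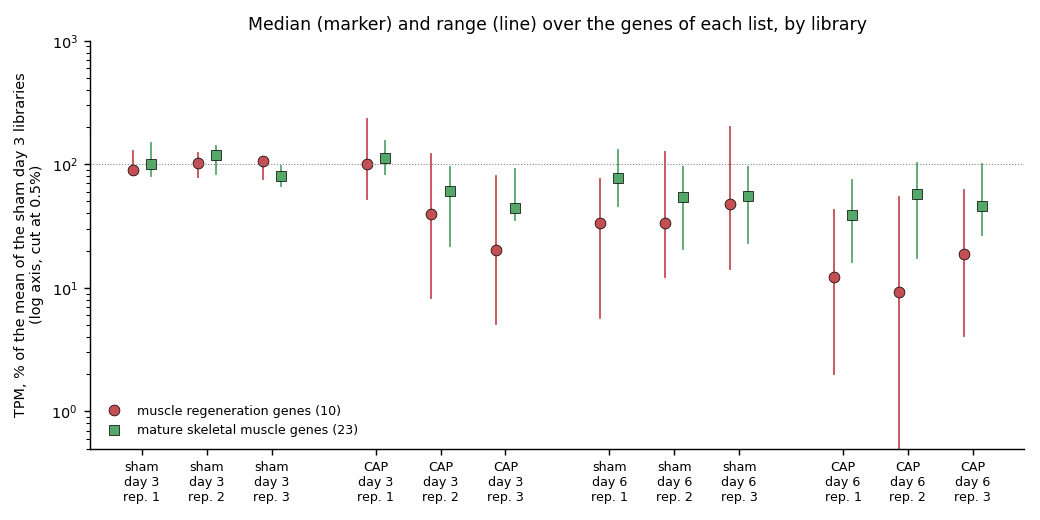
TPM of the 10 muscle regeneration genes and of 23 mature skeletal muscle genes in each library, as a percent of the gene's mean in the 3 sham libraries of day 3, on a log axis, with the median over genes as a marker and the range as a line. From the second CAP library of day 3 onward the median of the regeneration genes lies below that of the mature genes in all 8 libraries.

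To set the 10 genes against the muscle in each library, TPM were divided by the library's mean level of the mature genes, a step chosen after the data were seen. The mature genes had moved by -0.55 on the log2 scale between treatments at day 3, by -0.40 at day 6 and by -0.62 from day 3 to day 6 over both treatments, and the values of the 8 genes tested over both days moved up with them. Relative to mature muscle, averaged over days, Actc1 was lower in CAP-treated wounds by 2.28 on the log2 scale (4.85-fold, exact permutation p = 0.015) and Myh3 was lower by 2.22 (4.65-fold, exact permutation p = 0.01). Myog at -0.89 (exact permutation p = 0.04) and Ncam1 at -0.82 (exact permutation p = 0.03) were under 2-fold, as was Myh8 at -0.92 (exact permutation p = 0.065). Myf6 had a difference of 0.60 (1.51-fold, exact permutation p = 0.005, the smallest possible). On day 6 alone the treatments overlapped after this scaling for Myh3 (-2.23, exact permutation p = 0.2), Actc1 (-2.23, p = 0.3), Ncam1 (-0.90, p = 0.2) and Myh8 (-1.19, p = 0.3). At day 3 Myh3 (-2.19), Actc1 (-2.32), Myog (-0.89), Ncam1 (-0.74) and, in the other direction, Myf6 (0.94) did not overlap (exact permutation p = 0.1, the smallest possible). Nor did Myf6 at day 6 (0.25, exact permutation p = 0.1). The share of all genes without overlap after this scaling was not counted. Without the first CAP library of day 3 the values over both days were -2.49 for Myh3, -2.61 for Actc1 and 0.57 for Myf6 (exact permutation p = 0.01, 0.015 and 0.01), and Myog at -1.05 and Myh8 at -1.11 were then past 2-fold. From day 3 to day 6, Myog was lower by 2.36 (5.15-fold, exact permutation p = 0.005) and Myod1 by 2.07 (4.19-fold, exact permutation p = 0.005), with no overlap between days. Myh3 and Actc1 were both lower by 1.48 (exact permutation p = 0.02). These 4 were -2.20, -1.93, -1.21 and -1.15 without the first CAP library of day 3. Chrna1 had -0.80, Myf6 -0.47, Ncam1 0.33 and Myh8 0.52. These p are not adjusted over the genes.

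**Figure D4:**
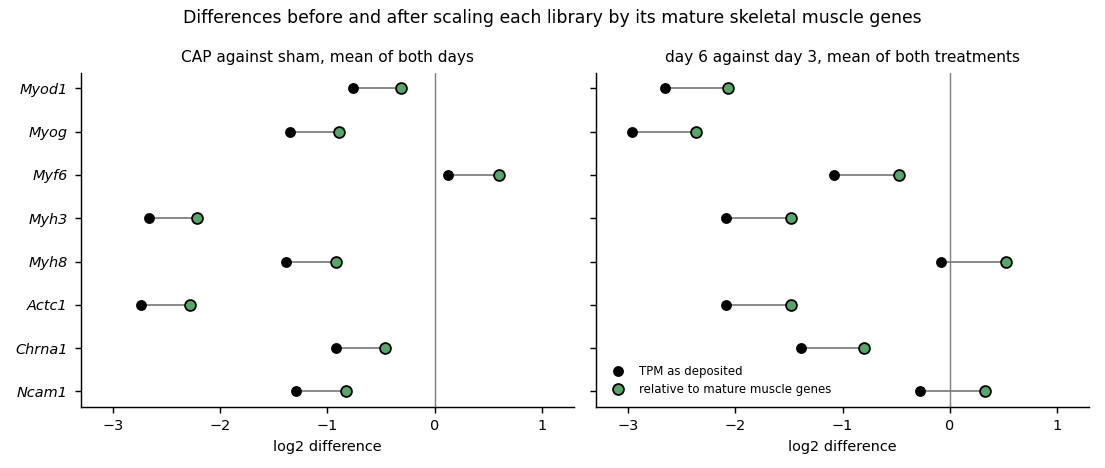
Log2 differences of the 8 genes tested, for CAP against sham averaged over days and for day 6 against day 3 averaged over treatments, from TPM as deposited (black) and relative to the mature muscle genes of each library (green). Myh3 and Actc1 stay furthest below 0 between treatments and Myog and Myod1 between days, while Myf6 lies at 0.60 in the first panel.

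The balance among the 10 genes also shifted, as ratios within a library show without regard to how much muscle it held. Myf6 stood at 0.222 to 0.244 times the TPM of Myog in the sham libraries of day 3 and at 0.584 to 1.19 times in the CAP libraries. At day 6 it stood at 0.731 to 2.33 times in the sham group and 1.22 to 4.97 times in CAP-treated wounds. Perinatal Myh8 stood at 0.271 to 0.407 times the TPM of embryonic Myh3 in the sham group at day 3 and at 0.740 to 1.45 times in CAP-treated wounds. At day 6 that ratio was 1.37 to 2.09 in the sham group and 2.03 to 7.77 in CAP-treated wounds. Myh8 shares sequence with Myh2, Myh1 and Myh4, and whether reads of those genes added to its level was not tested. For both ratios the CAP libraries of day 3 lay entirely above the sham libraries of that day, and the first CAP library was the nearest to them, at 0.584 and 0.740. Cardiac Actc1 made 0.982 to 2.01% of the level of its adult counterpart Acta1 in the sham group at day 3 and 0.0669 to 0.128% in CAP-treated wounds at day 6. The sham libraries of day 6 ran from 0.108 to 1.60% and so overlapped the CAP group.

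Other genes of muscle formation, a list of 33 genes that held none of the 10, was set beside them. At day 3, 3 of 31 tested were lower in CAP-treated wounds (1.16% of all genes) and 1 was higher (0.426% of all genes), with a median of -0.47. Mymk, the membrane protein that lets myoblasts fuse, fell by 2.07 on the log2 scale, the growth factor Igf2 by 1.42 and the developmental troponin Tnnt2 by 1.22, and the transcriptional partner Eya1 rose by 1.02. With the first CAP library left out, 10 of 30 were lower (1.97% of all genes) and 1 higher (150 of 18234 genes), with a median of -0.72. At day 6, 5 of 29 were lower (2.34% of all genes) and none higher, with a median of -0.48. Mymk fell by 2.03, the Notch target Heyl by 1.44, the embryonic light chain Myl4 by 1.43, Igf2 by 1.25 and Runx1 by 1.16. The adjusted p in limma were 0.574 to 0.708 at day 3 and 0.205 to 0.229 at day 6. Averaged over days 4 of 31 were lower (0.959% of all genes), Igf2, Mymk, Myl4 and Heyl, with a median of -0.42. Without the first CAP library of day 3, 8 of 30 were lower (1.19% of all genes).

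Over time in the sham group 9 of 31 were lower at day 6 (1.61% of all genes) and 2 higher (2.13% of all genes), with a median of -0.64 against 0.00 over all genes. The fusion peptide Mymx fell by 3.46 on the log2 scale, the fetal acetylcholine receptor subunit Chrng by 2.82, Mymk by 2.76, and the satellite cell cadherin Cdh15 by 2.19. Mymx, Chrng and Cdh15 had adjusted p in limma of 0.0327, 0.0258 and 0.0146. Chrnd, another receptor subunit, fell by 2.23 and Dok7, which organises the neuromuscular junction, by 1.34. Eya1 and Heyl rose by 1.48 and 1.21. In CAP-treated wounds 4 of 29 were lower (1.52% of all genes), Mymk by 2.72, Cdh15 by 1.93, Chrnd by 1.70 and Myl4 by 1.67, none was higher, and the median was -0.56. There, 2 of 29 were lower when the first CAP library of day 3 was left out, Mymk and Cdh15, against 1.47% of all genes. Averaged over treatments 8 of 30 were lower (1.29% of all genes) and none higher, with a median of -0.45.

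The genes whose pattern over the 12 libraries was most like the 10 were listed by Pearson's r to the mean of their standardized levels, as a description, since the libraries share groups and muscle content. The fusion factor Mymk came first among 19036 genes (r = 0.973), followed by Cavin4 (0.972), Myl4 (0.969), Casq2 (0.964), Arpp21 (0.964), Col26a1 (0.962), Tnnt1 (0.957), Ccdc141 (0.953), Ank1 (0.952) and Fgfr4 (0.952). The median r was 0.742 for the 31 measured genes of the muscle formation list and 0.819 for 23 mature muscle genes, against 0.149 over all genes. Of the 50 genes with the highest r, 8 were in the muscle formation list and 0 in the mature list. Of the first 10 genes only Mymk and Myl4 were on either list, so these counts depend on which genes the lists hold. When the first CAP library of day 3 was left out, 9 of the first 10 genes stayed among the first 10, and the medians were 0.727, 0.792 and 0.161. Among the 10 themselves, Pax7 and Chrna1 (both 0.965) were nearest to the common mean and Myf6 (0.688) and Myh8 (0.718) furthest from it.

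Single genes had different neighbours. Nearest to Myod1 were Mymx (r = 0.980), Fgfr4 (0.963) and Cdh15 (0.959), and nearest to Myog were Fgfr4 (0.980), Iqsec3 (0.959) and Cdh15 (0.958). Myh3 and Actc1 shared Tnnc1, the troponin C of slow and cardiac muscle (0.974 and 0.972), and Mymk (0.967 and 0.964). Myf6 was nearest to Gdf5 (0.941), Coro6 (0.940) and Tmem52 (0.924). For Ncam1 the nearest were Tssc4 (0.926), St8sia2, an enzyme that adds polysialic acid to NCAM (0.926), and Wnt2b (0.921). Chrna1 was nearest to Arpp21 (0.977), Pax7 to Ank1 (0.970), Myf5 to Abra (0.930) and Myh8 to Atp5j (0.940).

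**Figure D5:**
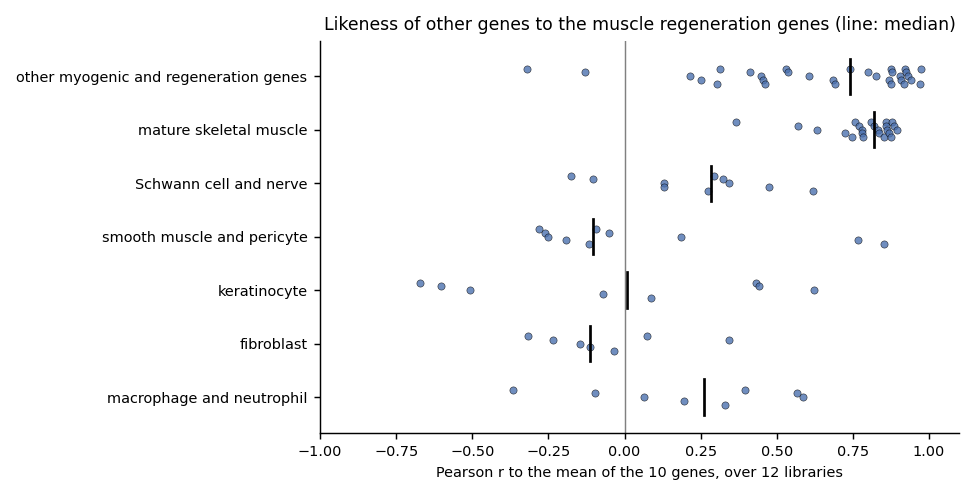
Pearson's r of each measured gene of 7 lists to the mean standardized level of the 10 muscle regeneration genes over the 12 libraries, with a line at the median of each list. The muscle formation genes (median 0.742) and the mature muscle genes (median 0.819) lie to the right of the Schwann cell (0.283), macrophage and neutrophil (0.262), keratinocyte (0.00716), smooth muscle (-0.104) and fibroblast (-0.113) lists.

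Genes of other cells in the wound were set beside these results. For Ncam1, the list that matters is that of Schwann cells and nerve. Its summed level over 10 genes was 228 to 278 TPM in the sham group at day 3 and 142 to 190 TPM in CAP-treated wounds, with 9 of 10 genes below 0 and a median of -0.53. On that day 1 of the 10 was called lower, against 1.16% of all genes. The CAP libraries lay entirely below the sham libraries in 5 of the 10, against 8.75% of all genes. At day 6 the summed level was 201 to 222 TPM in the sham group and 132 to 237 TPM in CAP-treated wounds, with none called and a median of -0.44. The CAP libraries of day 6 lay entirely below the sham libraries in 1 gene and entirely above them in 1, against 18% and 8.01% of all genes. The defining marker Sox10 was above 0 in all 12 libraries. The part of these cells in the Ncam1 difference was not tested. Of the smooth muscle and pericyte genes, 7 of 10 were higher at day 6 in the sham group, as were 2.13% of all genes, with a median of 1.34. In CAP-treated wounds none was called over time, against 1.27% of all genes higher, with a median of 0.47. In that group the median level at day 6 was 163%, 69.2% and 144% of the sham day 3 mean. Between treatments 3 of 10 were lower in CAP-treated wounds at day 6, as were 2.34% of all genes. Of the keratinocyte genes, 3 of 8 were higher in CAP-treated wounds at day 6, as were 1.46% of all genes, with a median of 0.49. The summed level of the 8 was 46518 to 97813 TPM in those wounds against 26874 to 30462 TPM in the sham group. TPM are shares of a total, and the part of the keratinocyte genes in the differences of day 6 was not tested. Of 7 fibroblast genes and of 8 macrophage and neutrophil genes none was called between treatments on either day, with medians of -0.42 and 0.05 at day 3 and of -0.34 and -0.58 at day 6.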

How the data were processed

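Total RNA of 12 mouse skin wounds was sequenced in the study from mRNA libraries (SureSelect XT HS2). The authors trimmed reads with Trimmomatic 0.36 and deposited TPM per gene, 1 table per library, made with StringTie on mm10, with 0.0001 written in place of 0. The aligner and the annotation release were not given in the sources used here. TPM hold no read counts, so depth is unknown and no count test was run. The deposited values were taken to log2(TPM + 0.1) and fitted across all genes with limma 3.58.1 (intensity trend, R 4.3.3). Genes averaged at least 0.3 TPM in both groups compared, or over all 12 libraries for the difference of effects. A call needed an unadjusted p below 0.05 and a change of at least 2-fold, the study's threshold, and Benjamini-Hochberg adjusted p are given beside it. Single genes also had 2-sided exact permutation tests over libraries, in 20 divisions of 6 libraries or 400 within days or treatments. The fit was tested on simulated data.

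All 10 genes were described. From the muscle lists every called gene was named, up to the 5 with the smallest p per comparison, with Acta1, Ckm, Mymk, Mymx, Chrng and Cdh15. Pearson's r for likeness used 19036 genes averaging at least 0.3 TPM. The 10 genes and the lists were chosen with earlier results of these data known. Alternatives were the pseudocount, the filter, median-ratio scaling, a replicate block, robust estimation, a joint fit, leaving out each library in turn and, chosen after the data were seen, scaling by mature muscle genes. That scaling puts 1 shared error into every gene of a library, so its differences had permutation tests and no fit across genes. Python 3.11.15 was used for the tables and figures. Promoter windows were from RefSeq.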

Additional observations from a re-analysis of the deposited data

Results flagged for a closer look

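Of 64 genes in the 3 muscle lists tested for a difference between the effects of CAP on the 2 days, 2 passed the unadjusted threshold (3.13%), fewer than the 4.6% of all genes, and neither passed after adjustment. For Eya1, a partner of homeobox factors in muscle, the effect at day 6 minus that at day 3 was -2.0 on the log2 scale (SE 0.64, unadjusted p = 0.00997, adjusted p = 0.423 in limma). Its difference between CAP and sham was 1.02 at day 3 and -0.99 at day 6. For Mstn, the gene of myostatin, which limits muscle growth, the difference of the effects was 1.59 (SE 0.64, unadjusted p = 0.0312, adjusted p = 0.423 in limma), from -0.77 at day 3 to 0.82 at day 6. None of the 10 muscle regeneration genes was among them.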

How the results depend on the processing

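The counts of regeneration genes past the threshold were 4 at day 3, 4 at day 6, 5 over both days, 5 and 5 over time in sham and CAP, 6 over time in both and 0 for the difference of effects. Outside the omission of single libraries they stayed within 1.5 times these values, at 3 to 4, 4 to 5, 5, 5 to 7, 4 to 6, 5 to 8 and 0. Leaving out 1 library at a time gave 2 to 7 at day 3, 3 to 6 at day 6, 5 to 7 over both days, 5 to 6 in sham, 2 to 6 in CAP and 5 to 6 in both. Single values changed sign when 1 library was left out. They ranged from -0.014 to 0.75 for Myf6 at day 3, from -0.27 to 0.074 for Myf6 at day 6, from -0.077 to 0.31 for Myf6 over both days and from -1.01 to 0.029 for Myod1 at day 6. Over time they ranged from -0.34 to 0.67 for Myh8 in sham, from -0.70 to 0.43 for Myh8 and -0.74 to 0.16 for Ncam1 in CAP, and from -0.31 to 0.27 for Myh8 in both, and for the difference of effects from -0.20 to 0.99 for Myod1. None of these passed the threshold. Relative to mature muscle genes, Myf6 turned to 0.25 at day 6, Ncam1 to 0.41, 0.24 and 0.33 over time in sham, in CAP and in both, and Myh8 to 0.25 in CAP and 0.52 in both. Without CAP replicate 1 of day 3 as well, these were 0.34 and 0.37 for Ncam1 and 0.61 and 0.71 for Myh8 in CAP and in both. Myog at day 3 lost its call with no filter (unadjusted p = 0.0579 in limma), Myh3 over time in CAP with a pseudocount of 1 TPM or no filter (0.0604 and 0.0613), and Myf6 over time in both at -0.96 with a pseudocount of 1 TPM. Across all genes the counts went from 290, 697, 216, 688, 507, 404 and 877 to 154, 385, 76, 405, 299, 180 and 574 with a pseudocount of 1 TPM. With no filter they were 568 at day 3, 404 over both days, and 1156, 842 and 715 over time. Keeping only genes at 0.3 TPM in every library gave 122 over both days and 267 over time in both. Of single libraries, leaving out CAP replicate 1 of day 3 gave 510 at day 3, CAP replicate 2 of day 6 gave 311 at day 6 and 543 for the difference of effects, and CAP replicate 3 of day 6 gave 1483, 339, 886 and 1636 at day 6, over both days, over time in CAP and for the difference. The cause was not tested. The deviations of libraries with the same replicate number had correlations of -0.107 to 0.200, with 1 above 0.1. With 3 libraries per group these values cannot show whether such libraries share more than a number. With the replicate block the counts were 4, 5, 5, 5, 5, 6 and 0, with Myog called at day 6 and, over time in CAP, Actc1 called and Myh3 not. TPM give no depth, so low values such as those of Pax7 and Myf5 carry an unknown counting error.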
